A study of Mus musculus with 24 samples.

Results

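The miRNA profile of 4TO7, a mouse mammary carcinoma line that the labels call systemically invasive, was compared with that of 67NR, its sister line labelled nonmetastatic. The members are the 8 arrays whose titles name 4TO7 and the 8 whose titles name 67NR, 16 of the 24 arrays of the series. The other 8 arrays hold 4T1, the highly metastatic sister line. They served in the normalization, the detection filter and the shared estimate of the spread. Cells of each line were kept for 6 days in organotypic (3D) culture. Each line was grown in 4 conditions with 2 arrays each, namely a compliant or a rigid microenvironment, each given either TGF-beta or a compound that blocks its type I receptor, which the labels name basal. No group went without both agents, so the inhibitor arrays are not an untreated baseline. As background, both lines are sublines of the same spontaneous mouse mammary tumour, each an isolate, so that a difference between them is one between 2 established lines and not an average over invasive or nonmetastatic tumours. Whether set 1 and set 2, the 2 replicates of a group, came from separate cultures is not in the labels, and the p-values below then measure only the spread between these arrays.

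MicroRNAs are short RNAs that guide Argonaute proteins to messenger RNAs, chiefly through the seed at bases 2 to 8, and lower the amount or translation of the target. Many are cut from shared precursor transcripts, so neighbouring hairpins in a cluster are often made together, and miRNAs with the same seed share many targets. The miR-17 clusters, the first of which is also known as oncomiR-1, hold miRNAs that promote proliferation and repress the pro-apoptotic BIM. The miR-200 family represses ZEB1 and ZEB2 and marks epithelial cells, whereas miR-143, miR-145, miR-199a and miR-214 are abundant in fibroblasts and smooth muscle.

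The sequences of the miRNAs on which the comparison turns are given first, since their seeds sort the changes into families. The array names carry no arm for most miRNAs, and the arm was assigned here from the usual miRBase meaning of the short name. Of 47 names looked up, 44 had an entry in the RefSeq table for GRCm38.p6. Capitals mark the seed. The first set shows that the miRNAs of the miR-17 clusters fall into 4 seeds:
miR-17: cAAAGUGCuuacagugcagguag
miR-20a: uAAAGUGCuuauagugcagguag
miR-106a: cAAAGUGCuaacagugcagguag
miR-20b: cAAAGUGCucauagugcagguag
miR-106b: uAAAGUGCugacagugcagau
miR-93: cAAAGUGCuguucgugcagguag
miR-18a: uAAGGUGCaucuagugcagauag
miR-18b: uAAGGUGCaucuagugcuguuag
miR-19a: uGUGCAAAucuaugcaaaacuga
miR-19b: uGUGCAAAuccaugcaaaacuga
miR-92a: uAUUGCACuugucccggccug
miR-25: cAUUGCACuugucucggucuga

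These miRNAs come from 3 places in GRCm38.p6. The miR-17 cluster lies at chr14:115043671-115044506 on the plus strand (6 hairpins), the miR-106a cluster at chrX:52741693-52742567 on the minus strand (6 hairpins) and the miR-106b cluster at chr5:138165321-138165818 on the minus strand (3 hairpins). MiR-19b and miR-92a have a hairpin in both the first and the second of them, so their level cannot be assigned to either. Within a seed the sequences are close. MiR-17 and miR-106a differ at 1 of 23 bases and miR-19a and miR-19b at 1 of 23, so cross-hybridisation between such probes cannot be separated from a change of both miRNAs.

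The second set holds the members of the miR-183 and miR-29 groups, which showed the other large family-wide rises, and the miR-130 seed:
miR-182: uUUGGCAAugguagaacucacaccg
miR-96: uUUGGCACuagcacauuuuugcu
miR-183: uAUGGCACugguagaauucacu
miR-29a: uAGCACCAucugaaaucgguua
miR-29b: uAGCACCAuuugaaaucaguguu
miR-29c: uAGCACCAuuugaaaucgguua
miR-130a: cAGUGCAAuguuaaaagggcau
miR-130b: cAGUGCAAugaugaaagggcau
miR-301a: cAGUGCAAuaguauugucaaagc

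The miR-183 cluster lies at chr6:30165918-30169737 on the minus strand, and its 3 members have 3 different seeds. The miR-29 family comes from chr6:31062660-31063093 (minus strand, miR-29a and miR-29b) and chr1:195037040-195037634 (plus strand, miR-29b and miR-29c), and all members share 1 seed.

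The third set gives single miRNAs with a large change. MiR-7b and miR-211 were added because they share the seeds of miR-7a and miR-204. The first 2 listed were higher and the others lower in 4TO7:
miR-210: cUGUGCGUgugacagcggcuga
miR-31: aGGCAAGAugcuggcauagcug
miR-7a: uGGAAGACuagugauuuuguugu
miR-7b: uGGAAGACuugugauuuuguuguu
miR-22: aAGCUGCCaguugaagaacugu
miR-34a: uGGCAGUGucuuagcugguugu
miR-204: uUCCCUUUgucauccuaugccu
miR-211: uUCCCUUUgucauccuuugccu

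Each array carried 558 probes for mouse miRNAs. A probe counted as detected on an array where the deposited detection p was under 0.05, which held for 313 to 325 probes on the 67NR arrays and 323 to 348 on the 4TO7 arrays. Levels are log2 intensities after quantile normalization, and differences are log2, 4TO7 minus 67NR, with their standard error (SE). Both arrays of 1 group or more, 4T1 groups included, had to detect a probe, and the 365 probes that met this entered a limma model. Of the 365, 6 were detected on no array of either line compared, and 2 of these 6 passed in the comparison over all conditions. Across probes, r was 0.997 to 0.999 between the replicates of a group, 0.989 to 0.999 within a line and 0.929 to 0.960 between the lines. The first principal component of the 16 arrays held 84.3% of the variance and placed the 4TO7 arrays between 4.32 and 6.32 and the 67NR arrays between -6.33 and -4.78. The second held 6.96% and separated the treatments within each line. The arrays were spread over 5 slides. Both lines shared slides 1, 4 and 5, and in 3 cases they shared a slide in the same condition. On slide 4 these were rigid inhibitor culture, with 1 67NR array against the mean of 2 4TO7 arrays, and rigid TGF-beta culture, with 1 array of each line. On slide 5 it was compliant inhibitor culture, with 1 array of each line.

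**Figure D1:**
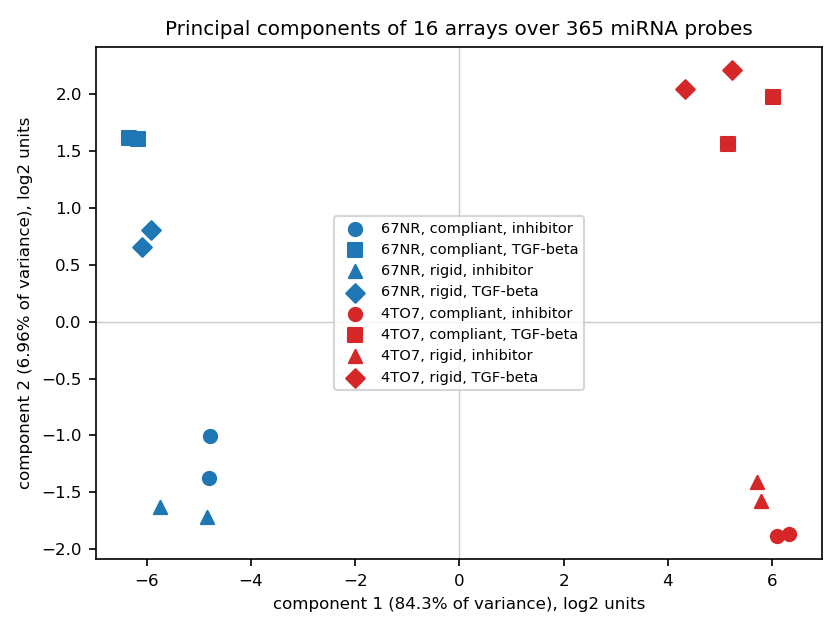
Principal components 1 (84.3% of the variance) and 2 (6.96%) of the 16 arrays over 365 probes, in log2 units, with colour for the line and shape for the condition. The 4TO7 arrays lie at 4.32 to 6.32 on the first component and the 67NR arrays at -6.33 to -4.78, and TGF-beta and inhibitor arrays separate on the second.

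The main question was which miRNAs differ between the lines across all 4 conditions. Of 365 probes tested, 317 (86.8%) passed limma's test at an adjusted p under 0.05. In 4TO7, 109 (29.9%) were higher and 208 (57.0%) lower. Most differences were small: 248 of the 317 were under 1.5-fold, 24 were more than 2-fold higher in 4TO7 and 4 more than 2-fold lower. The median difference of all tested probes was -0.15 and the median SE 0.04, so small falls below should be read against a general shift of -0.15. That shift ranged from -0.30 without scaling between arrays to -0.08 with scaling on the median of probes detected on all arrays. For 185 probes (50.7%) the 8 values of one line did not overlap the 8 of the other, 67 (18.4%) with 4TO7 above and 118 (32.3%) with 4TO7 below. The same direction held in all 4 conditions for 292 of the 317, and in the 3 same-slide comparisons 97.2%, 97.5% and 96.8% of the 317 kept their direction. Both results reuse arrays that gave the 317 their direction, so this agreement is in part built in.

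**Figure D2:**
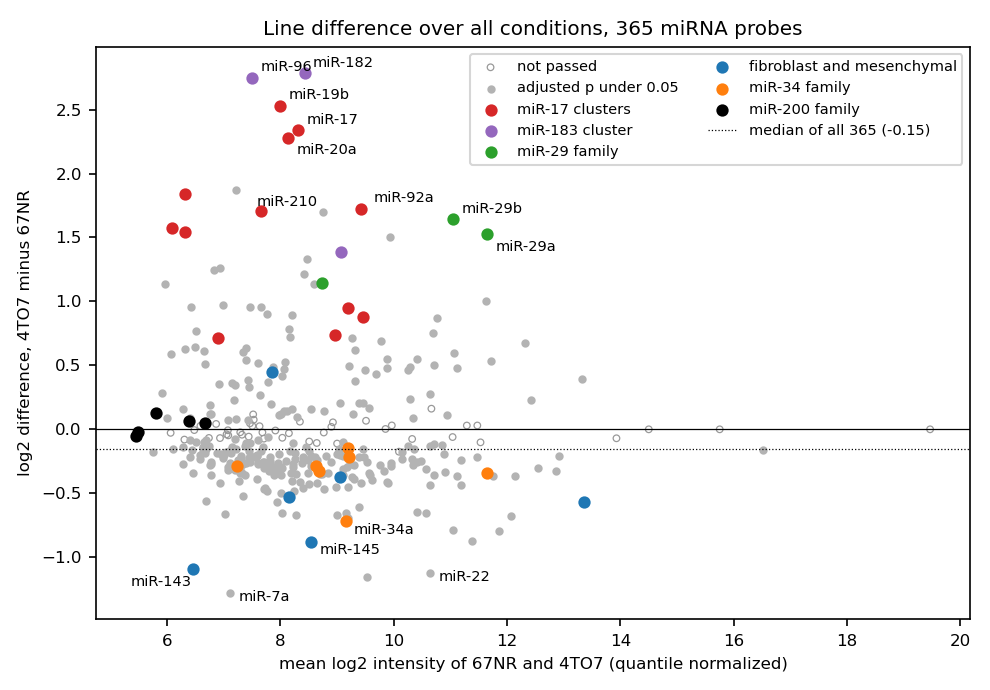
Log2 difference of 4TO7 minus 67NR over all conditions (vertical axis) against the mean log2 intensity of both lines (horizontal axis) for 365 probes, grey where the adjusted p was under 0.05, open where it was not, with 6 lists in colour. MiR-182 (2.79) and miR-96 (2.75) are the highest points and miR-7a (-1.28) the lowest, while the miR-200 family lies between -0.05 and 0.13.

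The main strands of the miR-17 clusters, those named without an asterisk, were higher in 4TO7. All 12 tested members of 13 on the array passed as higher, where 29.9% of all tested probes did. For all 12 the 4TO7 values lay above every 67NR value, as for 18.4% of all tested probes. The median difference of the 12 was 1.64 (0.72 to 2.53), beside -0.15 for all tested probes. The thirteenth member, miR-363, was detected on no array of either line. The 6 members tested for the miR-17 cluster on chromosome 14 rose by 1.54 to 2.53 (median 2.06). The 3 members unique to the X-chromosomal miR-106a cluster rose by 0.72 to 1.71 (median 1.57), and the 3 of the miR-106b cluster by 0.74 to 0.95 (median 0.88). The shares of near-identical members in these rises cannot be told apart. Passenger strands of these hairpins, marked with an asterisk, are not in the list. MiR-20a* also rose (0.64), whereas miR-17* (-0.02), miR-106b* (-0.06) and miR-92a* (-0.21) did not.

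MiR-19b, a main oncogenic member of the cluster, had 6.61, 6.71 and 6.84 as its lowest, median and highest log2 intensity in 67NR and 9.09, 9.28 and 9.49 in 4TO7. The 8 arrays of each line were thus more than 2 log2 units apart. The difference was 2.53 ± 0.04 (SE), or 5.78-fold (adjusted p = 2.4e-17, limma). MiR-17 itself, whose targets include cell cycle inhibitors, ranged from 7.05 to 7.27 (median 7.15) in 67NR and from 9.30 to 9.79 (median 9.45) in 4TO7, again without overlap. It was higher by 2.34 ± 0.04, or 5.07-fold (adjusted p = 2.7e-17). MiR-20a, with the same seed, ranged from 6.81 to 7.14 (median 7.01) in 67NR and from 9.12 to 9.55 (median 9.22) in 4TO7. It was higher by 2.28 ± 0.06, or 4.86-fold (adjusted p = 2.6e-15), and its groups did not overlap.

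MiR-92a, the last miRNA of the cluster, lay at 8.45, 8.54 and 8.70 (lowest, median, highest) in 67NR and at 10.22, 10.27 and 10.35 in 4TO7. Its rise of 1.72 ± 0.04 (3.31-fold, adjusted p = 2.1e-16) was the most even over conditions, at 1.67 to 1.78. MiR-18a, miR-18b, miR-19a and miR-20b were detected on all 8 4TO7 arrays and on no 67NR array. For such miRNAs a fold is a lower bound, taken against the higher of the undetected probe's own value and the lowest signal among detected probes on each array. MiR-18a was at least 2.54-fold higher (5.26 to 5.51 in 67NR, 7.11 to 7.38 in 4TO7), miR-19a at least 2.29-fold, miR-18b at least 1.96-fold and miR-20b at least 1.64-fold. MiR-106a, 1 base from miR-17, rose by 1.71 ± 0.05. In the miR-106b cluster, which lies in an intron of the replication gene Mcm7, miR-106b rose by 0.95 ± 0.05, miR-25 by 0.88 ± 0.05 and miR-93 by 0.74 ± 0.03.

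By seed, the 6 miRNAs that share the miR-17 seed rose by 0.72 to 2.34, the pair with the miR-18 seed by 1.57 to 1.84 and the pair with the miR-19 seed by 1.54 to 2.53. The 3 tested miRNAs with the miR-92 seed rose by 0.88 to 1.72. The last group includes miR-92b, which has a locus of its own and was undetected on all 67NR arrays (at least 2.32-fold higher). The median of the 12 members was 1.53 and 1.71 in compliant culture with inhibitor and TGF-beta, and 1.71 and 1.64 in rigid culture.

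The miR-183 cluster, best known from sensory organs and raised in many carcinomas, showed the largest differences. All 3 members passed as higher, where 29.9% of all tested probes did. Their 4TO7 values lay above every 67NR value, as for 18.4% of all tested probes. MiR-182, a repressor of FOXO factors, had a lowest, median and highest value of 6.87, 7.05 and 7.19 in 67NR and of 9.67, 9.81 and 10.03 in 4TO7. It was higher by 2.79 ± 0.04, or 6.90-fold (adjusted p = 2.1e-18), and by 2.64 to 2.86 in the single conditions. MiR-96 was detected on no 67NR array (5.78 to 6.35) and on every 4TO7 array (8.73 to 9.01), at least 6.61-fold higher. MiR-183 likewise was detected on none of 8 against 8 of 8 arrays (8.29 to 8.43 against 9.60 to 9.88), at least 2.62-fold higher. In the 3 same-slide comparisons miR-182 was higher by 2.77, 2.99 and 2.71.

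The miR-29 family, which represses collagens and other matrix genes as well as DNA methyltransferases, rose in all 3 members (median 1.53). MiR-29b lay at 10.03, 10.19 and 10.58 (lowest, median, highest) in 67NR and at 11.72, 11.83 and 12.01 in 4TO7. It was higher by 1.65 ± 0.06 (3.13-fold, adjusted p = 8.7e-13). MiR-29a lay at 10.67 to 11.06 and 12.30 to 12.71 and was higher by 1.53 ± 0.05 (2.88-fold). MiR-29c was higher by 1.14 ± 0.05. None of the 3 overlapped between the lines. Among all tested probes 29.9% passed as higher, and 18.4% lay without overlap with 4TO7 above. MiR-29a and miR-29c differ at 1 of 22 bases and may share signal.

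**Figure D3:**
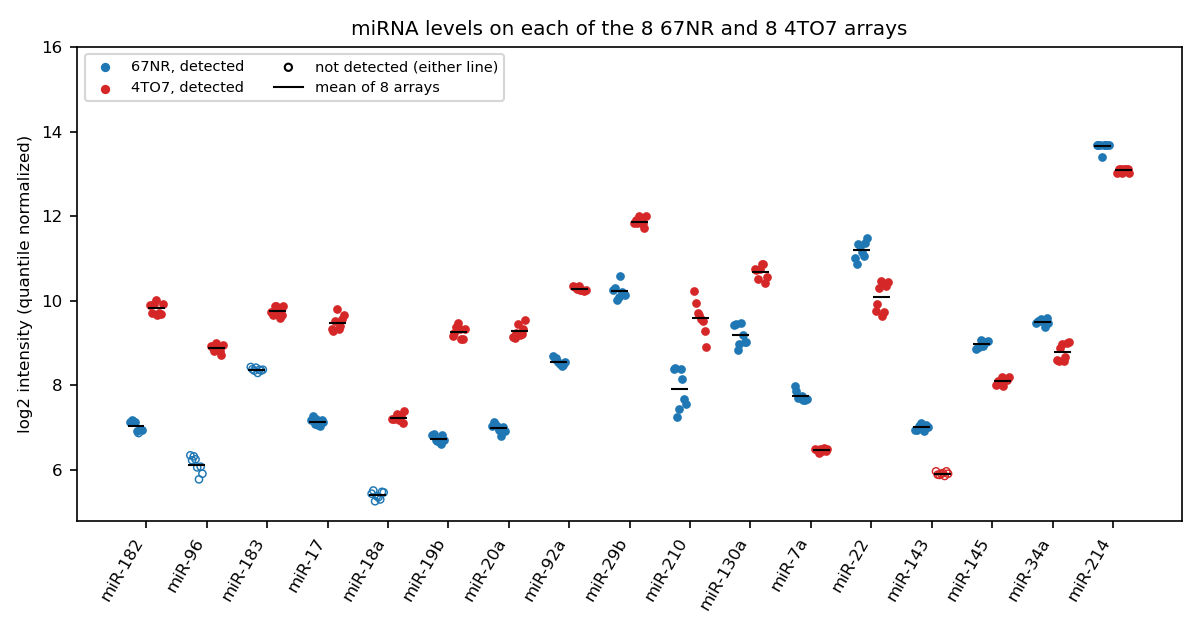
Quantile-normalized log2 intensity of 17 miRNAs on each of the 8 67NR (blue) and 8 4TO7 (red) arrays, filled where detected and open where not, with a bar for the mean of 8. From miR-182 to miR-130a every red point lies above the blue ones, and from miR-7a to miR-214 every red point lies below them.

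Several other miRNAs rose by 1 log2 unit or more. MiR-210, the main miRNA induced by hypoxia, had a lowest, median and highest value of 7.26, 7.91 and 8.41 in 67NR and of 8.91, 9.62 and 10.22 in 4TO7. The lines did not overlap, although both spread widely. In each line and microenvironment the TGF-beta arrays lay below the inhibitor arrays. It was higher in 4TO7 by 1.70 ± 0.06, or 3.24-fold (adjusted p = 3.9e-13), from 1.27 in rigid inhibitor culture to 2.33 in compliant TGF-beta culture. MiR-130a, which acts in vascular and blood cells, lay at 8.85, 9.11 and 9.49 in 67NR and at 10.42, 10.74 and 10.88 in 4TO7 and rose by 1.5 ± 0.05 (2.84-fold). The other members of its seed family followed, miR-301a by 0.95 ± 0.04, miR-130b by 0.89 ± 0.03 and miR-301b by 0.61 ± 0.02. Thus 4 of 4 passed as higher (median 0.92), where 29.9% of all tested probes did.

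MiR-31, reported as a suppressor of breast cancer metastasis, was higher in 4TO7, at 11.91, 12.11 and 12.30 against 10.63, 11.23 and 11.43 in 67NR. The difference was 1.0 ± 0.06 (2.01-fold, adjusted p = 1.1e-10) and that of its other strand, miR-31*, 1.33 ± 0.03. In rigid inhibitor culture on slide 4, 1 67NR array against 2 4TO7 arrays, miR-31 differed by 0.62. MiR-15a, a repressor of BCL2, rose by 1.14 ± 0.05 and miR-15b by 0.62 ± 0.05. Of the 6 tested members of the miR-15 family 5 passed as higher and miR-497 as lower (-0.43 ± 0.04), with a median of 0.19. The shares among all tested probes were 29.9% higher and 57.0% lower. Without scaling between arrays 2 of the 6 were higher, with a median of 0.04 beside -0.30 for all tested probes.

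Detection itself divided the lines for 18 probes. Of these, 16 were detected on all 8 4TO7 and no 67NR array, with folds of at least 1.52 to at least 6.61, and 4 of them belong to the miR-17 clusters. Beyond miR-96, miR-183 and miR-92b they include miR-148a, a miRNA abundant in liver and other epithelia (7.18 to 7.82 in 4TO7, 6.12 to 6.29 in 67NR, at least 2.36-fold higher). MiR-196b, encoded in a Hox cluster, was at least 1.55-fold higher, miR-652 at least 1.94-fold and miR-32 at least 1.73-fold. The passenger strands miR-20a* and miR-29a* were at least 1.56-fold and 1.52-fold higher. On the 4T1 arrays 15 of the 16 were detected 8 times of 8, and miR-148a on none. This is a count of detection, not a test between 4TO7 and 4T1.

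MiR-467a and miR-467b, which share a probe, led the remaining ones at no less than 3.66-fold (6.22 to 6.35 in 67NR, 8.03 to 8.35 in 4TO7). They belong to a large rodent cluster in an intron of Sfmbt2, as do miR-669a (at least 2.40-fold) and miR-669b (at least 1.86-fold). Of 20 probes for that cluster 15 were tested, of which 8 passed as higher and 3 as lower, where 29.9% and 57.0% of all tested probes did, with a median of 0.14. With slide as a block 8 were higher and 1 lower. The miRNAs of the cluster are near copies of each other, so that signal can be shared between probes.

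The reverse, detection on all 8 67NR and no 4TO7 array, was found for miR-143 and miR-206. MiR-143, a miRNA of smooth muscle and fibroblasts, lay at 6.92, 7.02 and 7.10 (lowest, median, highest) in 67NR and at 5.86, 5.91 and 5.97 in 4TO7. It was at least 2.02-fold lower in 4TO7 (fitted difference -1.09 ± 0.03). MiR-206, a skeletal muscle miRNA that represses the oestrogen receptor, was at least 1.58-fold lower (7.22 to 7.63 in 67NR, 6.57 to 6.78 in 4TO7). Neither was detected on any 4T1 array.

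Among falls, that of miR-7a was the largest. MiR-7a, which represses the EGF receptor, had values of 7.65, 7.71 and 8.0 (lowest, median, highest) in 67NR and of 6.41, 6.48 and 6.53 in 4TO7. The lines were more than 1 log2 unit apart and the 4TO7 arrays nearly equal. It was lower by 1.28 ± 0.03 on the log2 scale, or 2.43-fold (adjusted p = 2.1e-16), and miR-7b, 1 base different over 23, changed by -0.56 ± 0.03. MiR-7b was undetected on most 4TO7 arrays. MiR-22, reported to affect both metastasis and senescence in breast cells, lay at 10.88, 11.23 and 11.48 in 67NR and at 9.63, 10.12 and 10.47 in 4TO7. It changed by -1.12 ± 0.04, or 2.18-fold (adjusted p = 2.7e-13), between -0.94 in compliant TGF-beta and -1.43 in rigid inhibitor culture.

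The fibroblast and mesenchymal list was lower in 4TO7 for the most part. Of 8 probes 6 were tested, 5 of them lower, where 57.0% of all tested probes were, and 1 higher. The median was -0.55, beside -0.15 for all tested probes, and -0.51 to -0.59 in the 4 conditions. MiR-145, transcribed with miR-143, had values of 8.86, 8.99 and 9.08 in 67NR and of 7.99, 8.12 and 8.20 in 4TO7. The lines did not overlap, and the difference was -0.88 ± 0.04 (1.84-fold, adjusted p = 5.4e-12). MiR-214 and miR-199a-5p, which share the precursor transcript Dnm3os, changed by -0.57 ± 0.03 and -0.53 ± 0.03. MiR-214 is one of the brightest probes, where quantile normalization leaves few distinct values. It lay at 13.40 to 13.69 in 67NR and 13.01 to 13.13 in 4TO7, and under the 4 other scalings its difference was -0.92 to -1.13. MiR-10b, reported to promote breast cancer invasion, changed by -0.37 ± 0.06. MiR-140, known from cartilage, was higher by 0.45 ± 0.03. On the mean of the 6 tested probes the 67NR arrays lay at 9.12 to 9.21 and the 4TO7 arrays at 8.61 to 8.75. A smaller share of cells that express these miRNAs and lower levels per cell cannot be told apart in bulk RNA. Their part in the other differences was not tested.

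The miR-34 family, whose first members p53 induces, was tested with the related miR-449 miRNAs. All 7 tested of 8 probes passed as lower, where 57.0% of all tested probes did, with a median of -0.29 beside -0.15. With scaling on the median of probes detected on all arrays 5 of 7 did, with a median of -0.22 beside -0.08 for all tested probes. MiR-34a lay at 9.37, 9.52 and 9.60 (lowest, median, highest) in 67NR and at 8.58, 8.78 and 9.02 in 4TO7. It did not overlap and changed by -0.72 ± 0.04 (1.65-fold, adjusted p = 2.0e-11), though by -0.46 between the rigid TGF-beta arrays of slide 4. MiR-34c, at -0.32 ± 0.04, and miR-449a, at -0.34 ± 0.05, changed less. MiR-204 and miR-211, which share a seed and differ at 1 of 22 bases, changed by -0.70 ± 0.07 and -0.65 ± 0.06.

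Other large falls were those of miR-712* (-1.16 ± 0.09, 9.67 to 10.49 in 67NR against 8.65 to 9.19 in 4TO7), a product of ribosomal RNA spacer sequence, miR-715 (-0.87 ± 0.08), miR-761 (-0.78 ± 0.05), miR-711 (-0.68 ± 0.06) and miR-135a* (-0.67 ± 0.05). None of these overlapped between the lines, where 32.3% of all tested probes lay without overlap with 4TO7 below. MiR-494 changed by -0.80 ± 0.05 and belongs to the imprinted Dlk1-Dio3 cluster, the largest miRNA cluster of mammals. Of 61 probes listed for that cluster 34 were tested, 30 of them lower and 1 higher. Among all tested probes 57.0% were lower and 29.9% higher. The list median was -0.26, beside -0.15. MiR-431 (-0.66 ± 0.08, detected on 8 67NR and 3 4TO7 arrays) and miR-673-3p (-0.65 ± 0.04) followed miR-494. MiR-345-5p (0.16 ± 0.04) was the higher one in the list. The list counts miR-345-5p, miR-345-3p (-0.46) and miR-342-5p (-0.30) with the cluster, and their positions were not looked up.

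**Figure D4:**
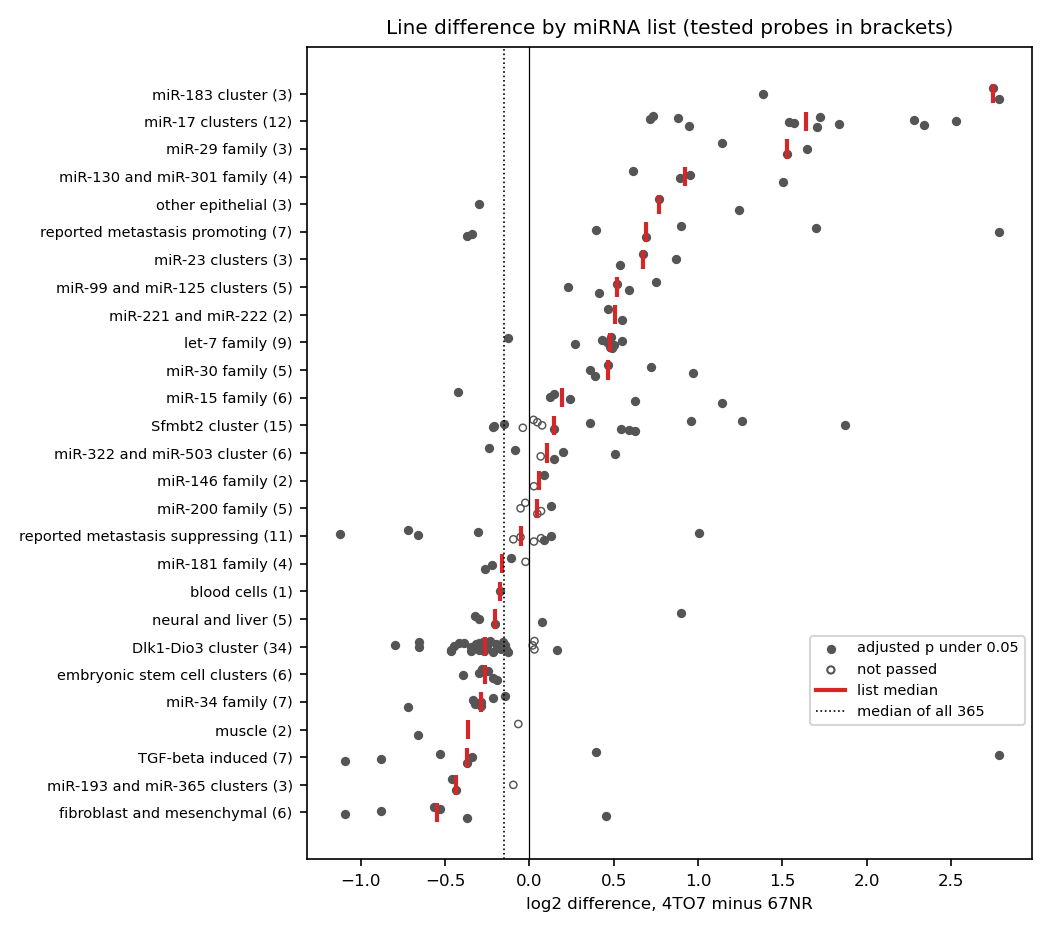
Log2 difference of 4TO7 minus 67NR for each tested probe of 27 lists (rows, number of tested probes in brackets), filled where the adjusted p was under 0.05, with the list median in red and the median of all 365 probes (-0.15) dotted. Medians run from -0.55 for the fibroblast and mesenchymal list to 2.75 for the miR-183 cluster.

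Of the epithelial miRNAs, the miR-200 family differed little between the lines. All 5 members of the miR-200 family were tested, and 1, miR-200c, passed (0.13 ± 0.04, adjusted p = 0.0049). Yet miR-200c was detected on no array of either line (5.66 to 5.83 in 67NR, 5.80 to 5.93 in 4TO7), and neither were miR-200b and miR-429, so no fold is given for them. They entered the test only through their detection on the 4T1 arrays. Without scaling between arrays the sign of miR-200c turned (-0.04). MiR-141 was detected on all 16 arrays at 6.54 to 6.83 and 6.58 to 6.78 (difference 0.05 ± 0.04, adjusted p = 0.25) and miR-200a on 1 67NR and 6 4TO7 arrays (0.07 ± 0.04, adjusted p = 0.099). Both passed, as higher, under 2 other scalings. On the 4T1 arrays all 5 were detected 8 times of 8, with means of 9.12 for miR-141, 8.58 for miR-200c, 8.56 for miR-200a, 7.56 for miR-429 and 7.36 for miR-200b. In both lines compared here the miR-200 family was thus at or near the detection limit. The other epithelial list had 3 of 4 probes tested, and all 3 passed without overlap between the lines. Among all tested probes 86.8% passed and 50.7% did not overlap. MiR-148a was higher, as given above, and so was miR-205 (0.77), which was detected on 2 4TO7 arrays alone. MiR-203, a miRNA of stratified epithelium, changed by -0.30 ± 0.03, and miR-375 was detected in neither line.

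Lists of broadly expressed miRNAs were mostly higher in 4TO7, by less than 2-fold. In the let-7 family, which restrains growth genes such as Ras and Hmga2, 8 of 9 passed as higher (median 0.48), where 29.9% of all tested probes did. Let-7i passed as lower (-0.13 ± 0.04), by less than the general shift of -0.15. The smallest p-values were those of let-7e (0.46 ± 0.03), let-7c (0.50 ± 0.04) and let-7a (0.49 ± 0.04). Without scaling between arrays 6 of 9 passed as higher, with a median of 0.29 beside -0.30 for all tested probes. All 5 members of the miR-30 family were higher (median 0.47), led by miR-30b, detected on 1 67NR and 8 4TO7 arrays (0.97 ± 0.06), and miR-30d (0.72 ± 0.03). The 3 probes of the miR-23 clusters were higher by 0.53 to 0.87, miR-24 the most. The miR-99 and miR-125 clusters had 5 of 5 higher (median 0.52), with miR-99b at 0.75 ± 0.03 and miR-125a-5p at 0.59 ± 0.04.

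Smaller families gave mixed counts, against 29.9% higher and 57.0% lower among all tested probes. MiR-221 and miR-222, which repress p27, rose by 0.55 ± 0.06 and 0.47 ± 0.03, with overlap between the lines. In the miR-322 and miR-503 cluster 3 of 6 were higher and 2 lower (median 0.11). The miR-181 family had 3 of 4 lower with a median of -0.16, equal to the general shift to within 0.01. MiR-181a changed by -0.26 ± 0.03 and miR-181d by -0.11 ± 0.03, the latter with the opposite sign in both comparisons within slide 4 (0.01 and 0.04). Of the miR-193 and miR-365 clusters 2 of 3 were lower, miR-365 by -0.46 ± 0.04 and miR-193 by -0.44 ± 0.04. MiR-146a was detected on 2 and miR-146b on 4 4TO7 arrays and neither in 67NR, and the small difference of miR-146b (0.09 ± 0.03) turned to -0.09 without scaling.

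Lists drawn from the literature on metastasis did not move as one. Their counts stand beside 29.9% higher and 57.0% lower among all tested probes, with a median of -0.15. Of 7 tested miRNAs reported to promote metastasis 5 were higher, led by miR-182 and miR-210, with miR-9 at 0.90 ± 0.03, the shared probe of miR-103 and miR-107 at 0.69 ± 0.06 and miR-21 at 0.39 ± 0.06, and 2 were lower, miR-10b and miR-155. The value of miR-21, a bright probe, depended on scaling. It did not pass under 3 other scalings (0.07 to 0.16) and was -0.05 without scaling. Of 11 tested miRNAs reported to suppress metastasis 3 were higher and 4 lower (median -0.05). With median scaling over all probes 2 were higher and 6 lower (median -0.08 beside -0.18 for all tested probes). Without scaling it was 1 and 6 (median -0.19 beside -0.30). Lower were miR-22, miR-34a, miR-206 and miR-335-5p (-0.30 ± 0.05), and miR-31 was higher. The other two counted as higher, miR-200c and miR-146b, changed sign without scaling, and miR-200c was detected in neither line. Of 7 tested miRNAs reported as induced by TGF-beta 2 were higher and 5 lower (median -0.37), a list that shares miR-143, miR-145, miR-199a-5p and miR-10b with the mesenchymal one.

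Markers of other cell types were undetected or detected only in part in both lines. Of 7 blood cell miRNAs, miR-142-3p, miR-223, miR-150 and 3 others were detected on no array, and miR-451 was present on all 16, at 10.08 to 10.42 in 67NR and 9.87 to 10.26 in 4TO7 (-0.17 ± 0.07, adjusted p = 0.035). This small difference lost its call when any of 9 arrays was left out singly, or with slide as a block, and was 0.16 in rigid inhibitor culture on slide 4. Neither of 2 endothelial probes, for the arms of miR-126, was detected. Of 6 muscle probes miR-206 and miR-208b were tested, and miR-1 and miR-133a were undetected. The neural and liver list had 5 of 8 tested, 2 of them higher, led by miR-9, and 3 lower, miR-138 (-0.33 ± 0.04), miR-129-5p (-0.30 ± 0.04) and miR-122 (-0.21 ± 0.03), while miR-124 was undetected. Of 15 embryonic stem cell probes 6 were tested and all 6 were lower, where 57.0% of all tested probes were. Their median was -0.27 beside -0.15. With scaling on probes detected on all arrays 5 of 6 passed, at a median of -0.15 beside -0.08 for all tested probes. Of the 15 probes 9 were undetected in both lines, among them miR-291a-3p, miR-294, miR-295, miR-302a, miR-302b, miR-302c and miR-302d.

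The 2 strands of a hairpin were compared where both had a tested probe, in 62 pairs. Both strands passed in 44 pairs, 31 in the same and 13 in opposite directions. Among all tested probes 86.8% passed, 29.9% as higher and 57.0% as lower. The first strand is the one named without an asterisk, or the 5p strand where names give 5p and 3p. In 15 pairs the first strand differed more than 1.5-fold. In 6 of these the second strand passed in the same direction, and in 7 in the opposite direction, by -0.23 to -0.06. That range holds the general shift of -0.15. MiR-31 and miR-31* rose together, as did miR-20a and miR-20a*, and miR-22*, undetected on most 4TO7 arrays, changed with miR-22 (-0.36 ± 0.04). By contrast miR-17 rose by 2.34 while miR-17* differed by -0.02 ± 0.02 (adjusted p = 0.30), or 0.06 to 0.08 in the authors' value table and with scaling on probes detected on all arrays, where it passed. MiR-92a and miR-29b rose while miR-92a* and miR-29b* changed by -0.21 ± 0.06 and -0.21 ± 0.03. Under the 4 other scalings miR-92a* was lower still, at -0.62 to -0.41. For miR-183* the difference was 0.06 ± 0.03 (adjusted p = 0.063), and it passed as higher under 3 other scalings.

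Within single conditions, 2 arrays of each line were compared. In compliant culture 250 probes (68.5%) passed with the inhibitor, 90 (24.7%) higher and 160 (43.8%) lower, and 274 (75.1%) with TGF-beta, 98 (26.8%) higher and 176 (48.2%) lower. In rigid culture 244 (66.8%) passed with the inhibitor, 89 (24.4%) higher and 155 (42.5%) lower, and 240 (65.8%) with TGF-beta, 85 (23.3%) higher and 155 (42.5%) lower. The balance of directions depended on scaling. With the median of probes detected on all arrays it was 110 to 88, 110 to 117 and 99 to 113 (higher to lower) in the first 3 of these conditions, and from the authors' deposited values it was 95 to 106 in rigid inhibitor culture. Without scaling it was 51 to 198, 84 to 20, 39 to 243 and 53 to 57. In all 4 conditions 180 probes passed with the same direction, 75 higher and 105 lower, and 7 passed in opposite directions in different conditions.

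Whether the line difference itself changed with treatment was tested as an interaction. It passed for 42 probes (11.5%), 27 (7.40%) with a more positive difference with TGF-beta and 15 (4.11%) with a more negative one, and the unadjusted p was under 0.05 for 85. The balance was 17 to 17 with scaling on the probes detected on all arrays, and 22 to 19 with the 16 arrays fitted alone. With slide as a block 27 passed. Leaving out single arrays gave 26 to 42, with 26 without the first 67NR compliant TGF-beta array or either 4TO7 rigid inhibitor array, and 27 without the first 67NR rigid inhibitor array.

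MiR-155, an inflammation-induced miRNA, had the smallest p. In 67NR it was detected on all 8 arrays at 7.41 to 7.61. In 4TO7 it was detected on none of the 4 inhibitor arrays (6.50 to 6.68) and on all 4 TGF-beta arrays (7.60 to 7.79). With the inhibitor 4TO7 was therefore at least 1.96-fold lower in compliant and at least 1.75-fold lower in rigid culture, and with TGF-beta it differed by 0.13 (adjusted p = 0.14) and 0.29 (adjusted p = 0.0032). The interaction was 1.10 ± 0.08 (adjusted p = 9.6e-08).

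MiR-205, which marks basal epithelium, was detected only on the 2 4TO7 arrays of compliant inhibitor culture (7.67 and 7.76, at least 3.08-fold above 67NR). The other 4TO7 arrays, at 6.25 to 7.01, and all 67NR arrays, at 6.05 to 6.21, were below detection. Its fitted interaction was -0.88 ± 0.08 with treatment (adjusted p = 1.2e-06) and -0.59 ± 0.08 with rigidity (adjusted p = 0.00045), both on values that are largely below detection. MiR-140*, the second strand of the cartilage miRNA miR-140, was detected on all 16 arrays. The lines differed by 0.04 and 0.16 with the inhibitor and by 0.48 and 0.81 with TGF-beta in compliant and rigid culture, an interaction of 0.54 ± 0.07 (adjusted p = 8.1e-05). MiR-450a-5p, of the miR-322 and miR-503 cluster, was undetected in 67NR and was detected on all 4 inhibitor but only 1 of 4 TGF-beta arrays of 4TO7. Its interaction was -0.38 ± 0.05 (adjusted p = 0.00022), and -0.05 without scaling.

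**Figure D5:**
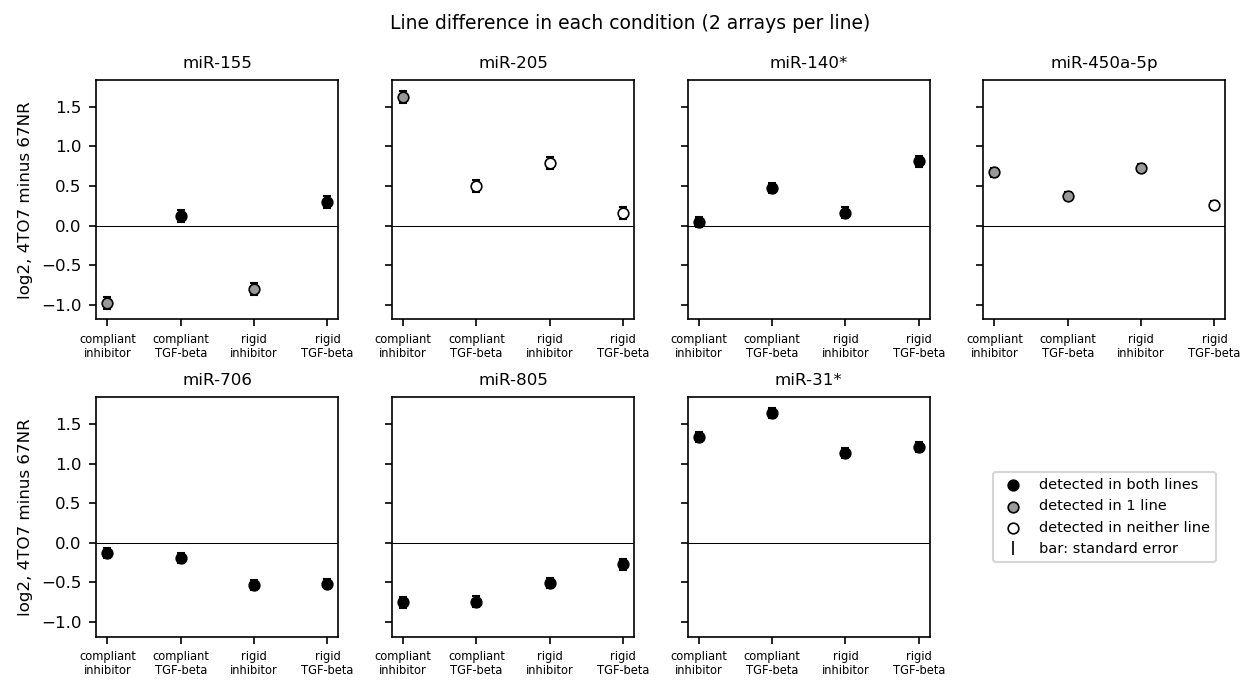
Log2 difference of 4TO7 minus 67NR (vertical axis, SE bars) in each of the 4 conditions, 2 arrays per line, for the 7 miRNAs whose line difference varied most clearly with treatment or rigidity, with shading for detection. MiR-155 lies at -0.97 and -0.80 with the inhibitor and at 0.13 and 0.29 with TGF-beta, and miR-205 is detected in 1 condition only, at 1.63.

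The line difference changed with rigidity for 25 probes (6.85%), 8 (2.19%) more positive and 17 (4.66%) more negative in rigid culture, with an unadjusted p under 0.05 for 57. In the authors' value table the balance was 12 to 11, and without scaling 0 to 10. This count rested on few arrays, falling to 10 without the first 4TO7 rigid inhibitor array and to 11 without the second 67NR rigid TGF-beta or the second 4TO7 compliant inhibitor array. It was 14 without the second 67NR compliant inhibitor array, and 15 without the first 67NR or the second 4TO7 compliant TGF-beta array. MiR-706 lay at 9.42 to 9.56 in 67NR compliant and 9.90 to 10.05 in 67NR rigid culture, and at 9.32 to 9.50 in 4TO7 throughout. The 67NR groups did not overlap, and the interaction was -0.37 ± 0.06 (adjusted p = 0.0050), or -0.55 with scaling on the probes detected on all arrays. MiR-805 (0.36 ± 0.07, adjusted p = 0.0064) and miR-31* (-0.32 ± 0.06, adjusted p = 0.0064) followed. Without scaling that of miR-805 was 0.21 (adjusted p = 0.72). That of miR-31* was -0.30 with an adjusted p of 0.061 when slide was a block. For the main strands of the miR-17, miR-183 and miR-29 groups described above the line difference kept its sign and passed in all 4 conditions.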

How the data were processed

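Total RNA was measured on 2-dye miRNA arrays. Per the file headers and the column guide deposited with them, the authors' intensity is the ratio of the sample dye (DY649) to the reference dye (DY547), background-subtracted, corrected for labelling and not scaled between arrays. The deposited detection p-value compares a probe with background probes, and a deposited fail code marks a weak reference channel. The authors also deposited log2 values for 338 probes, which differ from log2 intensity by 1 constant per array. No source used here gives the rule behind that constant. Intensities were taken to log2 and quantile-normalized over 558 probes and 24 arrays. Probes detected (p under 0.05) on both arrays of at least 1 group, with a fail code on fewer than 12 arrays, were tested with limma 3.58.1 in R 4.3.3 (12 group means, mean-variance trend, Benjamini-Hochberg, adjusted p under 0.05), after a check on simulated data. The number of arrays limits the precision.

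Named are the 12 largest rises and 12 largest falls with 1 direction in all conditions. Probes detected on all arrays of 1 line and none of the other, and the 4 smallest p-values of each interaction, were added. So were all epithelial and mesenchymal markers and, as examples, the members of each list with the smallest p. For each, the strand marked with an asterisk was added where tested. Outside this rule, let-7i, miR-7b, miR-21, miR-25, miR-31, miR-93, miR-103 and miR-107, miR-106b, miR-122, miR-211, miR-301b, miR-335-5p, miR-342-5p, miR-345-3p, miR-345-5p, miR-431 and miR-449a were chosen after their values were seen. Members and lists were chosen with earlier results of these data known. Alternatives were other scalings, the authors' values, other detection filters, slide or set as a block, array weights, both lines alone and each array left out.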

Additional observations from a re-analysis of the deposited data

Results flagged for a closer look

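The interaction tests singled out the miRNAs whose line difference varied with treatment or microenvironment, the 4 with the smallest p for each. With TGF-beta minus inhibitor the line difference changed by 1.10 for miR-155, -0.88 for miR-205, 0.54 for miR-140* and -0.38 for miR-450a-5p. With rigid minus compliant culture it changed by -0.59 for miR-205, -0.37 for miR-706, 0.36 for miR-805 and -0.32 for miR-31*. For miR-205 and miR-450a-5p the values in 67NR were all below detection, and for miR-155 those of the 4TO7 inhibitor arrays.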

How the results depend on the processing

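The count over all conditions was compared over 12 alternatives, some of which tested another number of probes. Where 365 were tested, as in the main fit, 290 to 327 passed. Without the detection filter 405 of 548 passed, with the authors' values 291 of 338, and with detection on at least 12 arrays 296 of 335. Leaving out single arrays gave 309 to 315 of 365. With single arrays left out, the counts were 212 to 251 and 236 to 276 in compliant culture with inhibitor and TGF-beta, 200 to 249 and 188 to 236 in rigid culture, 26 to 42 for the interaction with treatment and 10 to 21 for that with rigidity. Without scaling between arrays, 104 probes passed in compliant and 110 in rigid TGF-beta culture, 95 for the interaction with treatment and 10 for that with rigidity. With slide as a fixed block, 27 passed for the interaction with treatment. The replicate block on set number gave 317 over all conditions and 44 for the interaction with treatment, and set within each line 290 and 56. Same-numbered arrays deviated together with r of -0.01, 0.14, -0.07 and 0.02, so the numbers were not taken to pair arrays. Changes of sign were listed for the named miRNAs only. Among those that passed under either setting, signs turned without scaling for miR-200c (-0.039), miR-146b (-0.091) and miR-21 (-0.047). With scaling on probes detected on all arrays signs turned for miR-17* (0.080) and miR-99b* (0.0059), and in the authors' table for miR-17* (0.062). Within slide 4 they turned for miR-155 (0.29), miR-181d (0.012 and 0.036), miR-451 (0.16), let-7i (0.15) and miR-21 (-0.14), and within slide 5 for miR-122 (0.0062). Of all 317 probes that passed, 308 (rigid inhibitor) and 309 (rigid TGF-beta) kept their direction within slide 4, and 307 within slide 5. Of named miRNAs that did not pass, miR-141 (-0.098), miR-200a (-0.092), miR-146a (-0.14) and miR-183* (-0.025) turned without scaling, and miR-208b (0.31) within slide 4. Others that did not pass also turned, among them miR-200b and miR-429. The cause was not tested.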
